A study of Mus musculus with 29 samples.

Results

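The comparison described here is between non-tumour livers labelled IL17RA-/- and wild-type (WT) non-tumour livers from mice on the treatment labelled HFD. It rests on 6 of the 29 RNA-sequencing libraries of the series, 3 a group. The libraries were chosen by their labels, and the genes by level: 12360 of the 22187 genes listed reached 1 CPM (a count scaled to a common library total) or more in at least 3 of the 6 libraries. All gene-wise tests cover these 12360 genes.

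IL-17 receptor A is the shared chain of the receptors for IL-17A, IL-17F and several related cytokines. It pairs with receptor C for IL-17A and IL-17F, recruits the adaptor encoded by Traf3ip2 and, through TRAF6, TAB and TAK1, turns on NF-kappa-B and C/EBP target genes such as neutrophil chemokines, lipocalin 2 and acute phase proteins. In the liver the receptor is present on hepatocytes, Kupffer cells and stellate cells, and the pathway is known for its links to steatohepatitis, fibrosis and liver cancer.

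All mice were C57BL/6 and received 25 mg/kg of diethylnitrosamine (DEN), a carcinogen that hepatocytes activate, by injection into the abdomen at 2 weeks of age, and a feeding period of 18 weeks is given. The controls therefore carry the carcinogen as well. The sample labels name the treatments HFD and HFD_alcohol, whereas the design text speaks of liquid ethanol or pair-feeding; the sample labels are used, and HFD_alcohol is called alcohol below. The labels give no tissue-restricted Cre for IL17RA-/-, and they give no sex, litter, animal number or collection date. Nothing in them says that libraries of a group came from separate mice, so the p-values rest on a spread between libraries that may be technical. Per the labels' protocols, the libraries were strand-specific and made from polyA RNA.

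The depth recovered from the table was 4653421 counts (labelled replicate 2) to 9660581 counts (labelled replicate 3). The floor used here, 3 counts, is 0.31 to 0.64 CPM at this depth and covers counting error only. Summed hepatocyte identity genes were at 111400 to 171700 CPM in the labelled and 114300 to 137600 CPM in the WT libraries, so all 6 libraries were rich in hepatocyte RNA. As in any bulk tissue, fewer cells of a type and less RNA per cell cannot be told apart.

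Il17ra itself did not separate the labels. Il17ra (ENSMUSG00000002897, chromosome 6, 120463247 to 120487559, GRCm38) was at 36.1, 16.6 and 20.9 CPM in the libraries labelled IL17RA-/- and at 25.2, 27.3 and 26.3 CPM in WT. The labelled libraries lay on both sides of the WT libraries, and the highest of the 6 was labelled replicate 1. The means were 24.5 ± 10.3 and 26.3 ± 1.02 CPM (SD, n = 3 each), with a two-sided exact permutation p of 0.9, where 3 against 3 cannot go below 0.1. A value per gene does not show the loss of some exons, and the labels do not say which exons were removed, so the groups are called by their labels throughout.

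A pair of genes on the same chromosome as Il17ra went against the labels in some libraries. They were chosen because they separate the genotype labels in tumours. Adipor2, on the same chromosome, did so too, at 147.3 to 175.6 CPM in labelled and 252.7 to 412.9 CPM in WT tumours. All 6 non-tumour libraries (511 to 742.5 CPM) lay above both ranges, so ranges in tumours need not hold in non-tumour liver. Atp6v1e1 was at 44.3 to 57.95 CPM in labelled and 72.5 to 119 CPM in WT tumours. In non-tumour liver it was at 76.5, 92.8 and 93.6 CPM (labelled) and 104.2, 67.0 and 106.5 CPM (WT). Mug2 encodes a murinoglobulin, a secreted protease inhibitor (122006761 to 122085965). It was at 25.6, 776.5 and 1184 CPM in the labelled and 1073, 41.1 and 1056 CPM in the WT libraries. In the tumours it was 19.9 to 208.8 CPM in 7 labelled and 1009 to 2346 CPM in 6 WT libraries. Labelled replicate 1 and WT replicate 2 thus lay in the range of labelled tumours, labelled replicate 3 and WT replicates 1 and 3 in that of WT tumours, and labelled replicate 2 between them. Klrb1b, a receptor of natural killer cells, was at 0, 2.15 and 21.6 CPM in the labelled and 22.8, 0 and 0.337 CPM in the WT libraries. The upper limit that a count of 0 allows is the floor given above. In tumours Klrb1b was 0 to 0.416 CPM where labelled and 0.928 to 105.7 CPM in WT. It was again low in labelled replicate 1 and WT replicate 2 and high in labelled replicate 3 and WT replicate 1, and WT replicate 3 lay within the range of labelled tumours. By Mug2 and Klrb1b the library labelled replicate 3 did not match its label, and neither did WT replicate 2. By Atp6v1e1 every labelled library, replicate 1 included, lay within the range of WT tumours, and WT replicate 2 lay between the ranges. Labelled replicate 2 lay above the range of labelled tumours for both genes, and within that of WT tumours for Klrb1b. Whether these libraries carry the labelled genotype was not tested, and every direction below rests on the labels.

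**Figure D1:**
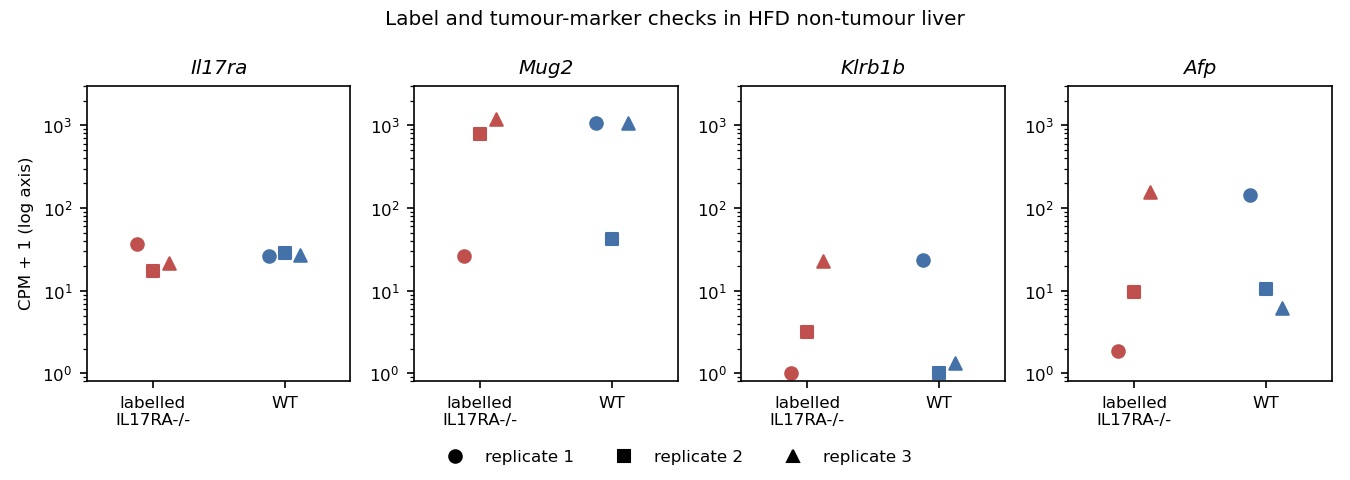
CPM + 1 on a log axis of Il17ra, Mug2, Klrb1b and Afp in the 3 libraries labelled IL17RA-/- and the 3 WT libraries, with a marker for each replicate number. Il17ra overlaps between the groups, Mug2 is low in labelled replicate 1 and WT replicate 2, and Afp is at 155.3 CPM in labelled replicate 3 and 141.2 CPM in WT replicate 1, and below 10 CPM in the other 4.

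The same pair of libraries also stood together in genes that male mouse liver expresses more than female liver under pulsatile growth hormone. Hsd3b5, a steroid-metabolising enzyme of that kind named after its values were seen, was at 121 CPM in labelled replicate 1 and 83.8 CPM in WT replicate 2. It was at 2.47 to 7.0 CPM in the other 4 libraries. Slco1a1, an organic anion transporter, was at 450 and 488 CPM in these libraries and at 38.8 to 134 CPM in the others. The male-biased list had a mean log2(CPM + 1) of 8.79 and 8.78 in them and of 6.65 to 7.53 in the others. The female-biased list parted them, at 2.56 in labelled replicate 1, the lowest library, and 4.66 in WT replicate 2. Labelled replicate 1 and WT replicate 2 were also the nearest of the 15 pairs of libraries, at a chi-square per gene of 14.9, against 17.5 to 53.8 for the other pairs. The distances are far above sampling noise, so no library was treated as a repeat of another.

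Labelled replicate 3 and WT replicate 1 stood apart in Afp and other oncofetal genes. Afp, the fetal serum protein alpha-fetoprotein, was at 0.873, 8.6 and 155.3 CPM in the labelled and at 141.2, 9.37 and 5.17 CPM in the WT libraries. In the 10 alcohol non-tumour libraries it reached 32.4 CPM at most, and in the 13 tumours it was 105.4 to 558.9 CPM. Gpc3, an oncofetal proteoglycan, was at 263.2 CPM in labelled replicate 3, within the 66.3 to 401 CPM of the tumours, but at 21.99 CPM in WT replicate 1, within the range of the alcohol non-tumour libraries (up to 29.8 CPM). Akr1c18 was at 82.4 CPM in labelled replicate 3 and 42.6 CPM in WT replicate 1, where the alcohol non-tumour libraries reached 28.4 CPM and the lowest tumour was at 48.6 CPM. Prom1, a progenitor cell marker, was at 17.7 CPM in WT replicate 1 and 10.9 CPM in labelled replicate 3, against 0.764 to 4.77 CPM in the other 4 and at least 18.7 CPM in tumours. Each group thus held 1 library with Afp in the range of tumours, and of the 2 only labelled replicate 3 was in that range for Gpc3 and Akr1c18. The same held for Spink1, at 19.98 CPM in labelled replicate 3 and 1.96 CPM in WT replicate 1 (tumours 4.24 to 51.85 CPM). Ly6d went the other way. WT replicate 1, at 133.5 CPM, was within the 123.8 to 425.5 CPM of tumours, and labelled replicate 3, at 87.05 CPM, was below it. WT replicate 1 also lay farthest out on the first principal component of the 6 libraries, which held 39.7% of the variance. Results are given below with all 6 libraries, and for most gene lists also without these 2.

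No gene passed the test. Limma on log2(CPM + 1), with the spread shared over the 16 non-tumour libraries, called 0 of 12360 genes (0.0% in either direction) at a Benjamini-Hochberg adjusted p under 0.05, and the smallest adjusted p was 0.896. At an unadjusted p under 0.05 there were 441 genes, 37 higher (0.299%) and 404 lower (3.27%) in the labelled libraries. Limma-voom on the recovered counts also called 0, with 479 at an unadjusted p under 0.05. The 441 rested on single libraries: there were 159 without WT replicate 1 and 273 without labelled replicate 2, but 868 without WT replicate 2 and 866 without labelled replicate 1, and 0 genes were called in each case. Of all genes, 131 (1.06%) had every labelled library above every WT library and 1062 (8.59%) had every labelled library below. Log2 fold changes below are labelled minus WT on the log2(CPM + 1) scale, on which genes of low level appear to change less than they do, with their standard error (SE).

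The shift of all genes set the background for every list. The median log2 fold change over all genes was -0.12, and 9071 genes (73.4%) were negative. After rescaling the libraries by median ratios the median was 0.003, and 6252 genes (50.6%) were positive. By limma, 318 genes were then at an unadjusted p under 0.05, 177 higher and 141 lower. The excess of lower genes given above was not kept. The counts of genes without overlap were not repeated after rescaling. Most list medians are therefore given both ways, and those of all lists with at least 4 tested members are plotted both ways. Without WT replicate 1 and labelled replicate 3, 7604 genes (61.5%) were negative.

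**Figure D2:**
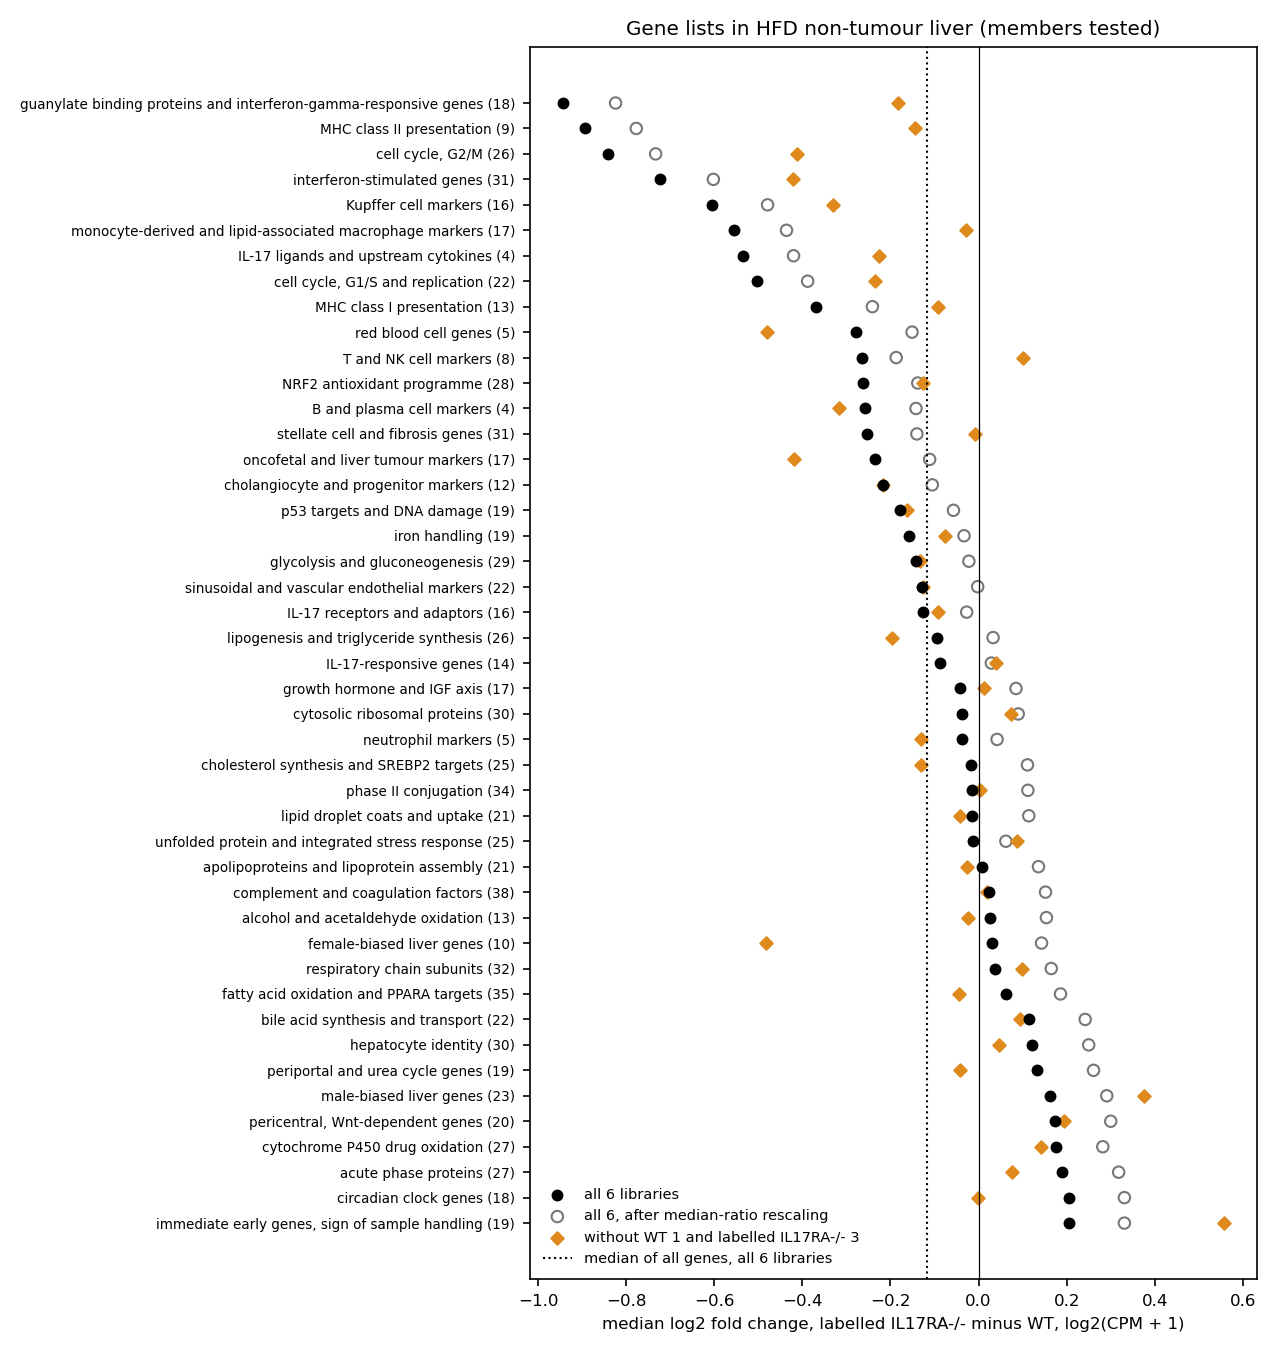
Median log2 fold change of the tested members of each list with at least 4 of them (number in brackets), labelled minus WT on the log2(CPM + 1) scale, with all 6 libraries, after rescaling, and without WT replicate 1 and labelled replicate 3. The interferon, MHC class II, G2/M and Kupffer lists lie lowest, left of the median of all genes at -0.12, and the lists for MHC class II and interferon-gamma-responsive genes move most towards 0 when those libraries are left out.

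The genes of the IL-17 pathway itself were measured at low to moderate levels. Of 16 tested receptors and adaptors, 12 were negative, with a median of -0.13 and of -0.03 after rescaling. Il17rb, the receptor chain for IL-17B and IL-25, was at 6.22, 8.81 and 7.35 CPM in the labelled and 13.03, 10.6 and 11.1 CPM in the WT libraries. All 3 labelled libraries lay below all 3 WT libraries, and the log2 fold change was -0.58 ± 0.24 (SE). Traf6, the ubiquitin ligase of the pathway, was the other member whose groups did not overlap, at 27.3 to 30.2 against 30.3 to 33.8 CPM, so the groups almost met. These 2 of 16 (12.5%) stand beside 8.59% of all genes. Il17rc, the partner of receptor A for IL-17A, was at 24.8, 18.5 and 19.2 CPM against 21.1, 21.1 and 15.96 CPM, within the spread of both groups.

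Traf3ip2, which encodes the adaptor Act1, was at 2.95, 1.07 and 1.24 CPM in the labelled and 3.92, 3.07 and 2.92 CPM in the WT libraries. Labelled replicate 1 reached into the WT range, while the other labelled libraries were lowest. Tab2, which links TRAF6 to TAK1, was at 52.6, 45.6 and 45.0 CPM against 68.8, 63.4 and 47.0 CPM, and also overlapped. Cebpb, a transcription factor downstream of the receptor, was at 156.3, 109.4 and 81.2 CPM in the labelled and 72.8, 41.3 and 107.9 CPM in the WT libraries. Cebpb is on the list of IL-17-responsive genes described below. Its log2 fold change was 0.69 ± 0.34 (SE), and WT replicate 3 lay among the labelled libraries.

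The ligands were at or near 0. Il17a, Il17f, Il17b, Il17d and Il25 were at 0 in all 6 libraries, and Il17c, Il23a and Il6 stayed under the floor. Of the 13 ligands and upstream cytokines, 4 were tested, and their median was -0.53 (-0.42 after rescaling and -0.23 without the 2 libraries high in Afp). Il1b, the inflammasome cytokine that supports IL-17-producing cells, was at 5.79, 1.5 and 2.59 CPM in the labelled and 11.9, 6.47 and 4.05 CPM in the WT libraries. Labelled replicate 1 lay inside the WT range, and the log2 fold change was -1.0 ± 0.46 (SE). Il1a was at 10.6, 6.23 and 4.24 CPM against 10.9, 11.03 and 9.87 CPM.

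The IL-17-responsive genes did not move together. Of 14 tested, 9 were negative, with a median of -0.09, and 0.03 after rescaling; leaving out 1 library took the median from -0.37 (without WT replicate 2) to 0.17 (without WT replicate 1). Lcn2, which encodes the iron-siderophore binder lipocalin 2, was at 130, 41.3 and 358 CPM in the labelled and 285, 59.3 and 109 CPM in the WT libraries. Its highest values were in the 2 libraries high in Afp. Cxcl1, a neutrophil chemokine, was at 23.4, 6.88 and 23.7 CPM against 19.8, 9.03 and 9.66 CPM. The monocyte chemokine Ccl2 was at 5.79, 3.65 and 2.59 CPM against 10.2, 5.11 and 4.5 CPM. Of 15 neutrophil markers 5 were tested, with a median of -0.04 (0.04 after rescaling and -0.13 without the 2 libraries high in Afp). Ly6g, which defines mouse neutrophils, was at 0 in all 6 libraries, and the list's summed level was 50.5 to 377.1 CPM in the labelled and 67.3 to 310.2 CPM in the WT libraries, most of it Lcn2.

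Interferon-stimulated genes were lower on average in the libraries labelled IL17RA-/-, with every tested member in the same direction, although no member passed the test. These are genes of the antiviral state that the factor ISGF3, which includes Stat2 and Irf9, turns on. All 31 tested members were negative, where 73.4% of all genes were, with a median of -0.72, -0.60 after rescaling and -0.42 without the 2 libraries high in Afp. In 11 of the 31 (35.5%) all labelled libraries lay below all WT libraries, against 8.59% of all genes. In the mean of log2(CPM + 1) over the list the groups overlapped, at 4.595 in labelled replicate 1 and 4.529 in WT replicate 2. The members rest on the same 6 libraries, so their count does not add replicates. With 1 library left out the median ran from -1.01 (without labelled replicate 1) to -0.55 (without labelled replicate 3), and all 31 stayed negative.

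Stat2 was at 51.7, 30.3 and 33.2 CPM in the labelled and 64.6, 55.5 and 54.6 CPM in the WT libraries. The groups did not overlap, with a log2 fold change of -0.62 ± 0.23 (SE). Oasl1, an inhibitor of Irf7 translation, was at 16.1, 13.5 and 7.45 CPM against 24.0, 18.9 and 26.0 CPM (log2 fold change -0.89 ± 0.41). Dhx58, which encodes the RNA sensor LGP2, was at 15.1, 14.4 and 12.1 CPM against 24.2, 19.1 and 23.1 CPM (-0.64 ± 0.29). In these 3 genes labelled replicate 1 was the highest of its group. Irf9 was at 45.4, 32.0 and 29.6 CPM against 49.2, 47.7 and 51.4 CPM, again without overlap, whereas Irf7 overlapped at 80.3, 47.5 and 35.9 CPM against 98.6, 60.8 and 133 CPM.

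ISGF3 binds the interferon-stimulated response element. Its core, searched on both strands as GAAA followed after any 2 bases by GAAA, was found in the 250 bases before the start of 11 of 21 interferon-stimulated genes with a promoter in the RefSeq table (52.4%), and of 334 of the 9655 tested genes with a promoter there (3.46%). Oasl1 had no such letters in this window. The match before Stat2, a gene whose protein is part of ISGF3, is shown for that reason; capitals mark the matched letters, read on the opposite strand. It lies at chr10:128270256-128270305 on the plus strand of GRCm38.p6, from RefSeq, and a match is a description, not a shown site.
Stat2: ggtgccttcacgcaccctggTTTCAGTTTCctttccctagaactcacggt

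Guanylate binding proteins and other interferon-gamma-responsive genes had the lowest list median, and WT replicate 1 carried much of it. All 18 tested members were negative, with a median of -0.94 and of -0.82 after rescaling. Cxcl9, a T cell chemokine that interferon-gamma induces, was at 39.8, 19.8 and 32.9 CPM in the labelled and 281, 28.4 and 35.7 CPM in the WT libraries. WT replicate 1 stood alone, and the other 5 overlapped. Gbp7 was at 44.4, 42.1 and 33.5 CPM against 112.5, 56.9 and 54.8 CPM and, with Gbp8, was 1 of only 2 members without overlap (11.1%, near the 8.59% of all genes). The immunity-related GTPase Irgm2 was at 112.4, 55.8 and 33.4 CPM against 184.1, 90.8 and 99.97 CPM. Without WT replicate 1 the median was -0.42, and without the 2 libraries high in Afp it was -0.18, with 13 of 18 negative. Gbp, Irg and Oas genes, like the H2, Mup and Cyp2c genes below, have close copies between which reads may have been split in counting, so values of single members are uncertain.

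Antigen presentation genes showed the same dependence. All 9 tested MHC class II genes were negative (median -0.89, -0.78 after rescaling), and none separated the groups. H2-Ab1, a class II beta chain, was at 112.4, 37.8 and 38.4 CPM in the labelled and 297.7, 48.9 and 131.3 CPM in the WT libraries. WT replicate 1 was the highest and labelled replicate 1 lay within the WT range. Without the 2 libraries high in Afp the class II median was -0.14. Of the class I genes all 13 were negative (median -0.37, -0.24 after rescaling), but the median was -0.15 without WT replicate 1 and -0.092 without the 2 libraries high in Afp, with 11 of 13 negative. B2m, the class I light chain, was at 1689, 1605 and 1424 CPM against 2077, 1900 and 1982 CPM without overlap (log2 fold change -0.34 ± 0.16), and Psmb9, an immunoproteasome subunit, was at 21.7, 18.1 and 14.3 CPM against 49.5, 21.7 and 26.2 CPM. T and NK cell markers had 8 of 22 members tested, 7 of them negative, with a median of -0.26 (-0.19 after rescaling). The direction turned to a median of 0.1, with 3 of 8 negative, without the 2 libraries high in Afp, and the median was -0.043 without WT replicate 1 alone. The list had a summed level of 16.5 to 32.1 CPM in the labelled and 17.2 to 51.8 CPM in the WT libraries, highest in WT replicate 1. Ifng, the cytokine itself, was at 0 to 0.56 CPM in the 6 libraries. The part of these cells in the interferon values was not tested.

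**Figure D3:**
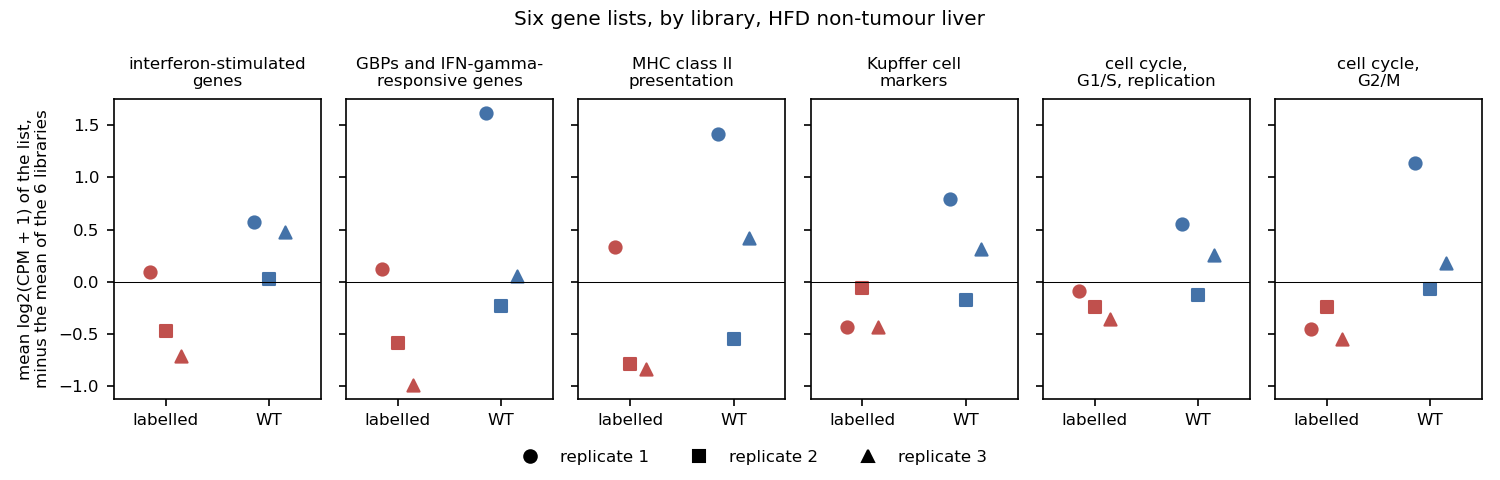
Mean log2(CPM + 1) of the tested members of 6 lists in each library, minus the mean over the 6 libraries, with a marker for each replicate number. WT replicate 1 is highest in every panel. For the interferon-stimulated genes labelled replicate 1 lies above WT replicate 2, and the G2/M panel keeps all labelled libraries below all WT libraries.

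Kupffer cell markers, genes of the resident liver macrophages, were negative in 16 of 16 (median -0.61, -0.48 after rescaling and -0.33 without the 2 libraries high in Afp). Their summed level was 1309, 1336 and 1068 CPM in the labelled and 2673, 1360 and 2053 CPM in the WT libraries. Labelled replicate 2 and WT replicate 2 were nearly equal in this sum, and in the mean of log2(CPM + 1) over the markers the groups overlapped, at 5.77 in labelled replicate 2 and 5.65 in WT replicate 2. Marco, a scavenger receptor, was at 13.4, 13.5 and 9.01 CPM against 117.1, 18.4 and 20 CPM, Adgre1 at 62.1, 75.4 and 55.4 CPM against 198.8, 80.1 and 119.0 CPM, and the iron exporter Slc40a1 at 279.2, 161.2 and 150.6 CPM against 298.8, 285.2 and 284.3 CPM. These were the 3 members (18.8%, against 8.59% of all genes) without overlap. The defining markers Clec4f (117, 193 and 137 against 196, 170 and 225 CPM) and Timd4 (2.84, 11.2 and 4.45 against 14.01, 4.94 and 3.93 CPM) overlapped. Markers of monocyte-derived macrophages were negative in 16 of 17 (median -0.56, -0.44 after rescaling), and the median was -0.03 without the 2 libraries high in Afp.

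Genes of mitosis were lower in the labelled libraries in the same sense. All 26 tested G2/M genes were negative (median -0.84, -0.73 after rescaling), and in 16 of them (61.5%, against 8.59% of all genes) the groups did not overlap. Without the 2 libraries high in Afp all 26 were still negative with a median of -0.41. With 1 library left out the median ran from -1.10 (without WT replicate 2) to -0.46 (without WT replicate 1). Their levels were low, a summed 77.8 to 100.8 CPM in the labelled and 124.8 to 320.4 CPM in the WT libraries, and many single values lay near the floor. A gene was tested if it reached 1 CPM in at least 3 of these same 6 libraries. A member that reached it in the WT libraries alone, as Plk1 below did, could only come out lower in the labelled ones. How many members did so was not counted, so the 26 and the 16 are a description.

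Kif11, the kinesin that separates spindle poles, was at 3.38, 3.87 and 3.21 CPM in the labelled and 14.8, 6.3 and 6.41 CPM in the WT libraries. All labelled libraries were lower, and the log2 fold change was -1.08 ± 0.48 (SE). Mki67, the proliferation marker Ki-67, was at 18.1, 22.1 and 17.7 CPM against 56.0, 29.8 and 30.01 CPM, also without overlap. Plk1, a mitotic kinase, was at 0.982, 0.43 and 0.932 CPM against 5.32, 1.36 and 1.57 CPM, and Aurka, the spindle pole kinase, at 1.75, 2.15 and 2.17 CPM against 6.3, 3.92 and 2.36 CPM. In each of these genes WT replicate 1 was the highest library, and the other WT libraries were also above all labelled ones. Of 22 genes of G1/S and replication, 21 were negative (median -0.50, -0.39 after rescaling). The replication clamp Pcna was at 29.9, 27.9 and 27.5 CPM against 47.4, 30.3 and 38.7 CPM, and Rrm2, a subunit of ribonucleotide reductase, at 5.35, 5.59 and 10.97 CPM against 15.3, 7.67 and 15.3 CPM. The G1/S median was -0.24 without the 2 libraries high in Afp.

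Promoters of mitotic genes are known for CCAAT boxes and for the cell cycle genes homology region (CHR), which the DREAM and MuvB complexes bind. Within the 250 bases before the start, CCAAT was found on either strand in 18 of 21 G2/M genes with a promoter in the table (85.7%) and in 40.8% of the 9655 tested genes with a promoter. The CHR letters TTTGAA were found in 8 of 21 (38.1%) and in 13.3%. The stretches before 3 genes described above are shown because they hold these letters. Capitals mark CCAAT or its opposite strand, and in Kif11 also the CHR letters on the opposite strand. They lie at chr7:122159401-122159434 (plus strand), chr2:172370571-172370641 (minus strand) and chr19:37376317-37376381 (plus strand) of GRCm38.p6, from RefSeq.
Plk1: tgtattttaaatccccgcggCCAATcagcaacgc
Aurka: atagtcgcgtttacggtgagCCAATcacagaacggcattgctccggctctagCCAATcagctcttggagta
Kif11: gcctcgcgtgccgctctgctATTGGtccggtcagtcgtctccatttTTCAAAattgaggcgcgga

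Genes with the largest separated differences were named by this rule: an unadjusted p under 0.05, no overlap between the groups, a group mean of at least 5 CPM on the higher side and no predicted gene, the 12 largest each way. Before the ranking, 236 genes met the rule, 21 higher and 215 lower in the labelled libraries. The rule was applied to values without rescaling, so this split carries the shift of all genes. Since the rule uses the difference itself, the values are a description. Among the higher genes, Tat, tyrosine aminotransferase, the first enzyme of tyrosine breakdown, was at 1638, 1918 and 1766 CPM in the labelled and 786.9, 1128 and 699.9 CPM in the WT libraries, a log2 fold change of 1.05 ± 0.41 (SE). All 3 labelled libraries were close together and well above WT replicate 2, the highest WT library. Slc7a2, a cationic amino acid transporter, was at 1185, 1211 and 1274 CPM against 677.2, 1008 and 944.7 CPM. Klf15, a transcription factor of amino acid catabolism and gluconeogenesis, was at 196.1, 199.4 and 175.8 CPM against 115.0, 172.6 and 129.2 CPM. Slc25a51, the mitochondrial NAD carrier, was at 112.8, 112.8 and 118.9 CPM against 66.2, 83.8 and 94.5 CPM. These 3 lay nearer to overlap, with log2 fold changes of 0.47 to 0.50.

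Other higher genes encode kinases and regulators. Trp53inp1, a p53-induced stress protein, was at 285.2, 559.2 and 403.3 CPM in the labelled and 248.9, 245.7 and 193.9 CPM in the WT libraries (log2 fold change 0.81 ± 0.30). The kinase Pim3 was at 155.1, 141.4 and 77.7 CPM against 50.01, 61.5 and 76.0 CPM, so labelled replicate 3 and WT replicate 3 almost met. Aatk was at 13.5, 22.4 and 18.0 CPM against 7.99, 11.2 and 9.22 CPM. The other higher genes of the rule were BC024139, Spata2l, Wfdc21, Kcnk5 and Tbc1d10a, with log2 fold changes of 0.45 to 0.82.

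Among the lower genes, Cish, a STAT5-induced inhibitor of cytokine and growth hormone signalling, had the largest difference, at 7.93, 4.22 and 2.74 CPM in the labelled and 19.3, 9.03 and 18.2 CPM in the WT libraries (log2 fold change -1.50 ± 0.62). Labelled replicate 1 and WT replicate 2 were nearly equal, and the other libraries lay far apart. Socs2, another STAT5 target, overlapped at 27.4, 8.81 and 4.35 CPM against 20.5, 39.2 and 13.9 CPM, and its highest values were in WT replicate 2 and labelled replicate 1. Rasgrp1, a Ras activator of lymphocytes, was at 7.75, 5.37 and 3.73 CPM against 23.1, 9.2 and 12.2 CPM. Il2rg, the common gamma chain of interleukin receptors, was at 4.37, 3.44 and 3.31 CPM against 20.03, 4.94 and 7.53 CPM. In both genes WT replicate 1 was far above the rest. Fam198a was at 2.62, 2.79 and 2.9 CPM against 13.7, 5.79 and 7.64 CPM; the labelled libraries were nearly equal. The cell cycle genes Cdca3 and Ckap2, the histone gene Hist2h3c2 and Adgb, Tmem26, Klra2 and Pik3c2g completed the list, with log2 fold changes of -1.40 to -0.98.

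**Figure D4:**
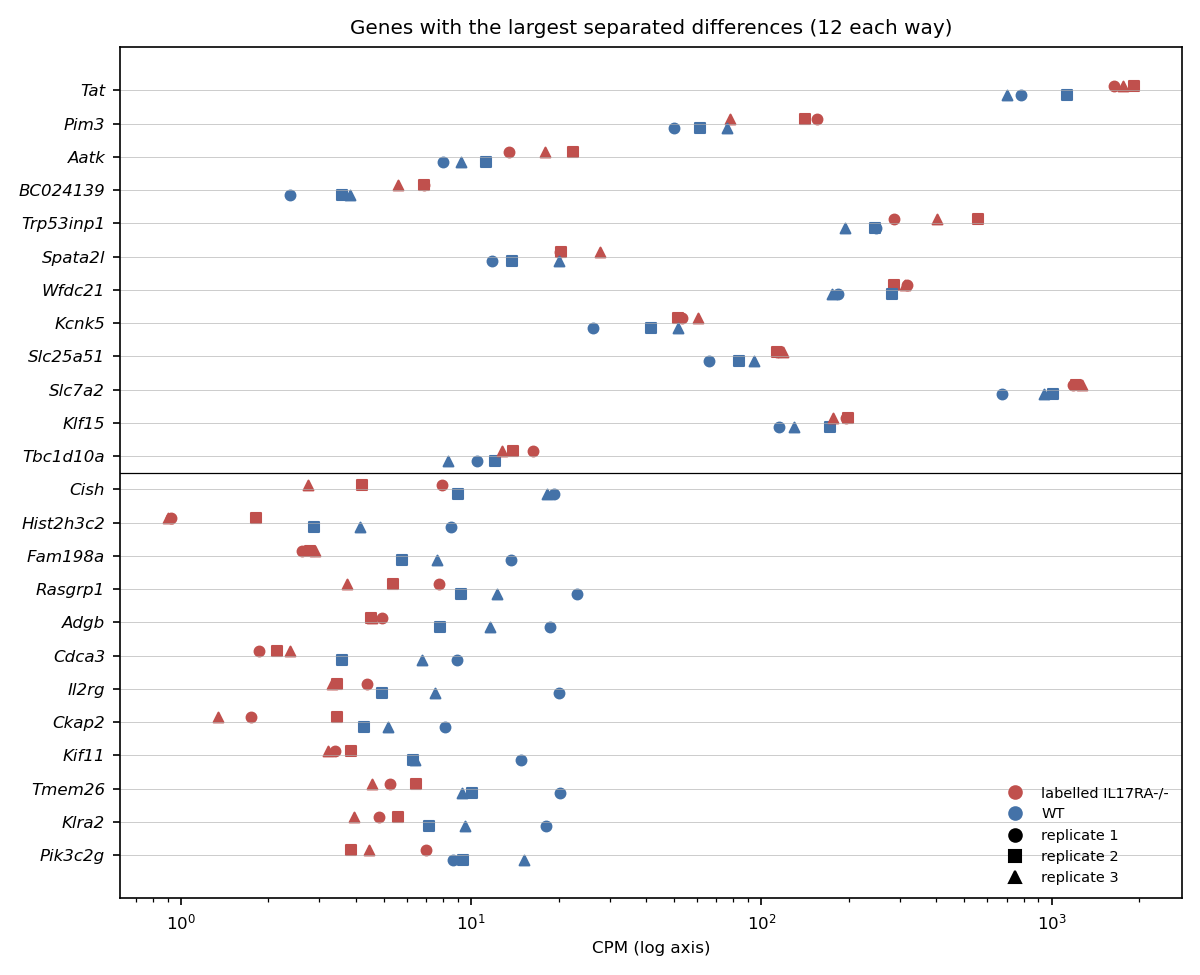
CPM on a log axis of the 12 higher and 12 lower genes of the rule in the 3 libraries labelled IL17RA-/- (red) and the 3 WT libraries (blue), with a marker for each replicate. No gene overlaps between the groups, by construction, and WT replicate 1 (blue circles) is the farthest WT library from the labelled ones in most of the lower genes.

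Hepatocyte programmes differed in the sign of their medians, and the medians were small. Glycolysis and gluconeogenesis genes had -0.14 (-0.02 after rescaling) and phase II conjugation genes -0.015 (0.11 after rescaling). Of 30 hepatocyte identity genes 20 were positive (median 0.12, 0.25 after rescaling), but the median was -0.01 without labelled replicate 3, which also held the most albumin mRNA (Alb at 27330, 39490 and 58780 CPM against 39180, 41210 and 36530 CPM). Its Alb level lay within the range of tumours (57200 to 147500 CPM) and above the alcohol non-tumour libraries (up to 44570 CPM). Apoh was at 1427, 1354 and 1425 CPM against 976.7, 1294 and 1122 CPM without overlap, whereas the transcription factor Foxa2 was separated the other way, at 15.8, 9.03 and 14.7 CPM against 18.8, 17.6 and 24.4 CPM. Pericentral genes, which depend on Wnt signals from the central vein, were positive in 16 of 20 (median 0.17, 0.30 after rescaling), and the median was 0.07 without labelled replicate 1. Drug-oxidising cytochromes P450 were positive in 20 of 27 (median 0.18, 0.28 after rescaling), and the median was 0.05 without labelled replicate 2 and 0.42 without labelled replicate 1. Cyp2e1, the ethanol- and DEN-oxidising P450, was at 7575, 8755 and 6150 CPM in the labelled and 3210, 6880 and 5585 CPM in the WT libraries. WT replicate 1 was lowest and the groups overlapped, with a log2 fold change of 0.57 ± 0.26 (SE). Cyp2c29 was at 830.0, 1671 and 1047 CPM against 360.4, 1244 and 333.9 CPM. Cyp27a1, the sterol 27-hydroxylase of bile acid synthesis, was at 392.3, 401.9 and 349.9 CPM against 261.3, 356.3 and 314.2 CPM.

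Acute phase proteins were positive in 21 of 27, with a median of 0.19 (0.32 after rescaling) that became -0.01 without labelled replicate 3 and 0.08 without the 2 libraries high in Afp. Saa1, a serum amyloid A, was at 271.8, 82.1 and 506.5 CPM against 173.7, 129.0 and 96.5 CPM, and overlapped. Genes of the unfolded protein and integrated stress response had a median of -0.01 (0.06 after rescaling and 0.09 without the 2 libraries high in Afp), but its members Chac1, which degrades glutathione, and Herpud1, of endoplasmic reticulum protein disposal, had higher means in the labelled libraries. Chac1 was at 6.22, 11.4 and 8.28 CPM against 3.08, 1.7 and 6.41 CPM, with a log2 fold change of 1.11 ± 0.42 (SE) and overlap only between labelled replicate 1 and WT replicate 3. Herpud1 was at 514.4, 670.0 and 713.5 CPM against 345.0, 383.0 and 427.3 CPM without overlap (0.71 ± 0.35). Immediate early genes, which respond within minutes and were listed as a sign of sample handling, were positive in 12 of 19 (median 0.21, 0.33 after rescaling and 0.56 without the 2 libraries high in Afp). Their part in the other differences was not tested.

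Lists of other liver cells were near the shift of all genes with all libraries, but the stellate list moved with single libraries. Stellate cell and fibrosis genes were negative in 29 of 31 (median -0.25, -0.14 after rescaling), but in 16 of 31 (median -0.01) without the 2 libraries high in Afp. Without labelled replicate 1 their median was -0.58, where that of all genes was -0.15. Sinusoidal endothelial markers were negative in 17 of 22 (median -0.13, -0.002 after rescaling). Kdr, the VEGF receptor of endothelium, was at 86.0, 77.8 and 64.7 CPM in the labelled and 98.6, 96.4 and 99.0 CPM in the WT libraries and was separated (log2 fold change -0.37 ± 0.15). NRF2-dependent antioxidant genes were negative in 24 of 28 (median -0.26, -0.14 after rescaling).

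Whether these differences were particular to HFD was tested against the 10 alcohol non-tumour libraries, 5 labelled IL17RA-/- and 5 WT, which share no library with the 6. Limma called 0 of 12360 differences between the genotype contrasts (0.0% in either direction), with 53 higher (0.429%) and 453 lower (3.67%) on HFD at an unadjusted p under 0.05. After rescaling it again called 0, with 219 higher and 141 lower at that unadjusted p. So no gene below is shown to respond differently on the 2 diets. The lists that lay farthest apart were G2/M genes, with a median of -0.84 on HFD and 0.18 on alcohol, and cholesterol synthesis, with -0.02 and 0.93. In the G2/M list 4 of 26 members were among the 453. Kupffer cell markers had nearly equal medians on both, -0.61 and -0.59, and interferon-stimulated genes had -0.72 and -0.18. The medians of all genes were -0.116 on HFD and 0.014 on alcohol, and the alcohol medians were not rescaled.

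Genes of fat synthesis had a median of -0.10 on HFD (0.03 after rescaling) and of 0.30 on alcohol (not rescaled). Of the 26, 5 were among the 453, which are 3.67% of all genes. Acacb, the acetyl-CoA carboxylase whose product restrains fatty acid oxidation, was at 25.0, 26.0 and 48.4 CPM in the labelled and 63.9, 38.5 and 89.6 CPM in the WT libraries on HFD. On alcohol it was at 91.8 ± 40.9 CPM (SD, n = 5) against 46.6 ± 17.2 CPM (n = 5). Fasn, fatty acid synthase, was at 372.9, 339.1 and 555.5 CPM against 952.5, 452.5 and 841.8 CPM on HFD and at 674.2 ± 154.8 against 494.7 ± 265.2 CPM (SD, n = 5 each) on alcohol. Both genes were lower in the labelled libraries on HFD, with overlap through labelled replicate 3 and WT replicate 2, and higher in them on alcohol. Chac1 went from 8.63 against 3.73 CPM (group means) on HFD to 4.1 ± 1.93 against 10.5 ± 3.62 CPM (SD, n = 5 each) on alcohol, and Fam198a from 2.77 against 9.05 CPM to 5.78 ± 2.21 against 3.38 ± 1.58 CPM. For all 4 genes the adjusted p of the difference in limma was 0.967.

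**Figure D5:**
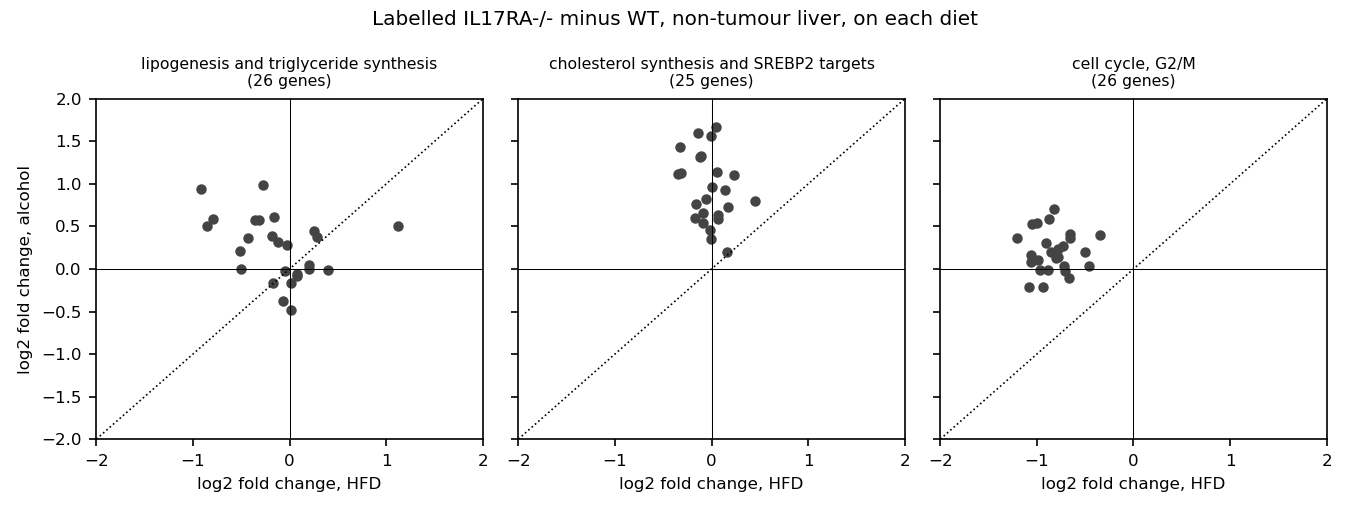
Log2 fold change, labelled minus WT on the log2(CPM + 1) scale, of each tested member of 3 lists in HFD non-tumour liver (x axis) and in alcohol non-tumour liver (y axis); the dotted line marks equal values. Cholesterol genes spread along the y axis above 0, and the 26 G2/M genes lie left of 0 on HFD and mostly above 0 on alcohol.

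The contrast was also tested against HFD tumours, 3 labelled and 3 WT. Limma called 2 of 12360 differences, 1 higher and 1 lower in non-tumour liver (0.00809% each), with 894 higher (7.23%) and 1013 lower (8.2%) at an unadjusted p under 0.05. Prdx6, a peroxiredoxin that reduces lipid peroxides, was at 570.7, 592.3 and 515.6 CPM in the labelled and 413.1, 521.7 and 575.5 CPM in the WT non-tumour libraries, which overlapped. In tumours it was at 174.2 ± 13.5 against 391.1 ± 27.4 CPM (SD, n = 3 each), so the difference of the log2 fold changes was 1.33 ± 0.19 (SE, adjusted p 0.00297 in limma). Rbp4, the plasma carrier of retinol, was at 1088, 1086 and 1195 CPM against 1124, 1144 and 1108 CPM in non-tumour liver and at 2137 ± 146.8 against 853.1 ± 213.6 CPM in tumours. Its difference was -1.36 ± 0.24 (SE, adjusted p 0.0441). In limma the call of Rbp4 was lost after rescaling (adjusted p 0.0698) and on leaving out any of these single libraries: labelled non-tumour replicates 1 to 3, WT non-tumour replicates 2 and 3, labelled tumour replicates 4 to 6 and WT tumour replicate 4 (adjusted p 0.0532 to 0.139). That of Prdx6 was kept in all alternatives run, at adjusted p up to 0.0479. Both calls therefore came from tumours that differed by label, while the non-tumour libraries did not separate. The count of 2 rested on single tumour libraries: it was 802 without WT HFD tumour replicate 5 and 11 without replicate 6, and 7 without WT non-tumour replicate 1.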

How the data were processed

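The authors deposited 1 table of CPM values, in which each library's genes sum to the same total, for all 29 libraries. The submitters' processing notes name STAR 2.5.1a, RSEM 1.3.0 and build GRCm38; sources used here give neither annotation nor filters. Nonzero values in the 6 libraries were multiples of 1 step per library, 82.9% to 86.0% of them whole counts within a tolerance of 0.002, which gave the depths. Symbols and coordinates came from GENCODE M21, also GRCm38, which gave 21653 IDs a symbol and 534 none. No mitochondrial or Y-linked gene was listed.

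Groups and replicate numbers came from sample titles and genotype labels. Genes reaching 1 CPM in 3 or more of the 6 libraries were tested with limma 3.58.1 (R 4.3.3), two-sided, with a trend in the variance, on log2(CPM + 1) in the 16 non-tumour libraries without a block. Calls needed a Benjamini-Hochberg adjusted p under 0.05. The tissue difference used all 29 libraries. The scripts were tested on simulated data.

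The comparison, the 46 gene lists and the tests were chosen with earlier results of these data known, so lists carry counts and medians but no test. Named genes were Il17ra, the 12 largest separated differences each way, up to 3 members per list by unadjusted p, and any member of the IL-17 and cell marker lists. Some genes were named outside this rule, among them Irf7, Irf9, Gbp8 and Mki67. Alternatives were a pseudocount of 0.1, no filter, a filter over 16 libraries, median-ratio rescaling, other sets of libraries, leaving out each library and a replicate block. Limma-voom on recovered expected counts, leaving out tumour and alcohol libraries, and leaving out several doubted libraries at once were chosen after seeing the data. Promoters (RefSeq, GRCm38.p6) were matched by symbol: 9655 of 12360 tested genes had one.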

Additional observations from a re-analysis of the deposited data

Results flagged for a closer look

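The genotype contrast of 2 genes differed between non-tumour liver and tumours on HFD by the limma test of the difference itself. For Prdx6 the difference of the log2 fold changes was 1.33, and it passed in each alternative run. For Rbp4 it was -1.36. In both genes the labelled and WT non-tumour libraries overlapped, and the labelled and WT tumours did not have close means.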

How the results depend on the processing

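No gene was called by label in HFD non-tumour liver under any alternative run. After rescaling, limma gave 318 genes at an unadjusted p under 0.05, 177 higher and 141 lower. For the difference from alcohol it gave 360, 219 higher and 141 lower. The number at an unadjusted p under 0.05 (441) was 278 with all 29 libraries in the fit, 164 without WT replicate 1 and labelled replicate 3, 290 without labelled replicates 2 and 3 and WT replicate 2, which lay outside the range of their label for Mug2, and 159 to 868 leaving out 1 library. Same-numbered libraries had correlations of deviations of 0.09, 0.14 and -0.05, and libraries of unlike number had -0.21 to 0.1. With so few libraries this cannot decide whether the numbers pair them. A limma fit with the replicate number as a block in the 6 libraries called 0 genes, with 916 at an unadjusted p under 0.05. Without the block the same 6 libraries gave 498, and again 0 were called. For the difference from alcohol the number (506) was 297 without WT replicate 1 and labelled replicate 3 and 274 to 783 leaving out 1 library (274 without WT replicate 1, 327 and 775 without labelled replicates 2 and 1, 783 without labelled alcohol replicate 2), and again 0 were called. For the difference from tumours the calls (2) were 6 without a filter, 1 without WT replicate 1 and labelled replicate 3 and 1 to 802 leaving out 1 library; the number at an unadjusted p under 0.05 (1907) then ran from 1283 to 2862, the latter without WT tumour replicate 5.

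The log2 fold change of Il17ra (-0.17) turned to 0.07 without labelled replicate 2 (leave-one-out range -0.48 to 0.07) and to 0.47 without labelled replicates 2 and 3 and WT replicate 2. Under this last setting 4 named genes turned as well; over all settings with fewer libraries Il1a ran from -0.91 to 0.024, Igfbp1 from -0.47 to 1.64, Socs2 from -1.69 to 0.67 and Btg2 from -0.15 to 1.34. The G1/S median was -0.24 without WT replicate 1 and labelled replicate 3, and -0.64 to -0.34 leaving out 1 library. The other medians of the interferon, MHC, Kupffer, cell cycle and IL-17-responsive lists moved by less than 1 SD between replicates. That SD was wide, 0.835 for MHC class II and 0.808 for the interferon-gamma-responsive list, so this does not show stability. Without WT replicate 1 and labelled replicate 3 these 2 medians went from -0.894 to -0.144 and from -0.944 to -0.182. The IL-17-responsive median turned from -0.088 to 0.166 without WT replicate 1. The difference of Rbp4 from tumours kept its sign and lost its call in 11 alternatives, at -1.14 to -1.40. The causes were not tested. Over 70 named genes and 16 alternatives the lowest adjusted p was 0.647. Depth limits the G2/M genes, many of them near the floor of 0.31 to 0.64 CPM.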

Other observations

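A female-biased gene and a fat marker were highest in labelled replicate 2. Cyp2b13, a female-biased cytochrome P450, was at 1.75, 52.6 and 12.9 CPM in the labelled and 4.94, 18.8 and 2.03 CPM in the WT libraries. Cfd, which encodes the adipocyte protease adipsin, was at 3.28, 111.5 and 23.9 CPM against 5.74, 16.9 and 4.72 CPM. Labelled replicate 2 was the highest for both genes and labelled replicate 1 the lowest, so the groups overlapped fully. Of 14 adipocyte and pancreas markers, 2 were tested, Cfd and Cela1.

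Female-biased and male-biased lists moved with single libraries. The female-biased median (10 genes) was 0.03 with all libraries and 1.04 without labelled replicate 1. The male-biased median (23 genes) was 0.16 with all libraries, -0.26 without labelled replicate 1 and 0.65 without WT replicate 2. The labels give no sex for any library.

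Genes of the respiratory chain and of cytosolic ribosomes had small medians, with directions that followed scaling and single libraries. Of 32 respiratory chain subunits 7 were negative (median 0.04) and of 30 ribosomal proteins 25 (median -0.04). After rescaling, when 50.6% of all genes were positive, 0 and 3 were negative (medians 0.165 and 0.09). With 1 library left out, 0 to 28 of the 32 and 3 to 29 of the 30 were negative.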
